A study of Homo sapiens with 10 samples.

Results

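Hsa-miR-193b, hsa-miR-193a-3p, hsa-miR-193a-5p and hsa-miR-365 are 4 of the 745 microRNA assays with which RNA pulled out of living cells by a messenger RNA probe was measured. They were taken by name, leaving out the names with a star (the lesser strand of a hairpin). The set was chosen by its Cq values in these same purifications, so every value is a description and none carries a test. HepG2 (a human liver tumour line) received a control probe, a probe against the p21 mRNA or a probe against the STAT3 mRNA, and PC-3 (a human prostate cancer line) received a control or a p21 probe. The p21 protein is a cyclin-dependent kinase inhibitor and STAT3 is a transcription factor activated by cytokines. Transfected probes were left for 24 hours before streptavidin beads collected them with the RNA they had bound (miRIP). Each of the 5 conditions was purified 1 time and measured on 2 PCR panels with different assays, so there were no replicates and no p-value could be given. The sequence of the control, p21 and STAT3 probes and the amount of target mRNA recovered were not analysed here.

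MicroRNAs are cut from hairpin precursors, and a mature strand loaded into an Argonaute protein pairs with messenger RNAs mainly through its seed, the bases near its 5′ end. The miR-193 and miR-365 hairpins lie beside each other at a pair of duplicated loci. miR-193b is widely described as a growth-restraining miRNA that represses cyclin D1 and MCL1, and miR-193b with miR-365 has been described as a cluster that supports the formation of brown fat cells. Hairpins transcribed as a unit start from equal amounts of precursor, while processing and strand choice set each mature level.

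The mature sequences show which of the assays could read alike. They are given 5′ to 3′ from RefSeq (GRCh38.p14), with the seed, bases 2 to 8, in capitals. The names in the data are older: miR-193b and miR-365 correspond to the 3p strands below, and the names with a star to the 5p strands.
miR-193b-3p: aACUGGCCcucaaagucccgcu
miR-193a-3p: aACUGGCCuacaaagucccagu
miR-365a-3p: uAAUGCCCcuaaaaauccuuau
miR-365b-3p: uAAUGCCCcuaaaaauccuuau
miR-193a-5p: uGGGUCUUugcgggcgagauga
miR-193b-5p: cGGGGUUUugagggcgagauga
miR-365a-5p: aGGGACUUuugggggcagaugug
miR-365b-5p: aGGGACUUucaggggcagcugu
The 3p strands of miR-193b and miR-193a share the seed ACUGGCC, and no other of the 2370 mature miRNAs in the RefSeq table has it. They are identical at 18 of 22 bases and differ by C9U, U10A, G20A and C21G (miR-193b base first, positions counted from the 5′ end). The seed of miR-365, AAUGCCC, is a different one, and the strands made from both miR-365 loci are identical over all 22 bases. The miR-365 assay therefore reads both loci together. The 5p strands of miR-193b and miR-193a do not share a seed and differ at 4 of 22 bases. miR-365-3p has a GC content of 31.8%, against 59.1% for miR-193b-3p and 50% for miR-193a-3p.

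The hairpins, with both mature arms in capitals, place the arms of each locus.
MIR193B: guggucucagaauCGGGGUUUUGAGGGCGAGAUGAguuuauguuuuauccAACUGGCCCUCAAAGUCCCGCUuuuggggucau
MIR365A: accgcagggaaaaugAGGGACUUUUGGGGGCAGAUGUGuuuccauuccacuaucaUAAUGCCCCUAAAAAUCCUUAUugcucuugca
MIR193A: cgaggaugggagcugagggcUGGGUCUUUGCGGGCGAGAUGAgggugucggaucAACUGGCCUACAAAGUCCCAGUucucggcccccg
MIR365B: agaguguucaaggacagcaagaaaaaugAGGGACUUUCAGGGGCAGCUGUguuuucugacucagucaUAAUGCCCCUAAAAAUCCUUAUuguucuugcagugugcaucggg
MIR193B (chr16:14303967-14304049, plus strand) and MIR365A (chr16:14309285-14309371, plus strand) are 5235 bases apart, and both lie inside the annotated span of the long noncoding RNA gene MIR193BHG (chr16:14301381-14331062). MIR193A (chr17:31559996-31560083, plus strand) and MIR365B (chr17:31575411-31575521, plus strand) are 15327 bases apart. MIR365B lies inside MIR365BHG (chr17:31571142-31575659), also a long noncoding RNA gene, and MIR193A lies outside it. Only gene spans were used, so exon and intron were not told apart.

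Levels are quantification cycles (Cq), counted until the PCR signal reaches a set threshold. A lower Cq means more RNA, and 1 cycle was taken as 1 log2 unit. An assay counted as detected at a Cq of at most 35. Wells of the same assay on both panels put the SD of 1 Cq at 0.634 cycles (22 pairs of wells) and that of a difference between purifications at 0.724 (11 pairs), offsets between panels included. The SD for a difference between 2 such differences is 1.02. These SDs cover the PCR and the panel, not the purification. Most of the 11 pairs are the small nuclear and nucleolar RNAs U6, SNORD38B and SNORD49A, and the only miRNA is miR-103. Against the control in HepG2, miR-103 rose by 5.59 and 3.32 cycles on panels 1 and 2 with p21. With STAT3 it rose by 2.32 and 0.80. The panels lay closer together for each small RNA, so these SDs may understate the spread of a miRNA. HepG2 gave 125 detected assays with the control probe, 211 with p21 and 256 with STAT3, and PC-3 gave 16 and 53. Of 6 liver-enriched miRNAs (miR-122, miR-192, miR-194, miR-215, miR-148a and miR-885-5p), 0 were detected in the control and p21 purifications of HepG2 and 4 in its STAT3 purification. The share of all assays detected in HepG2 was 16.8% with the control probe, 28.3% with p21 and 34.4% with STAT3. The 4 liver-enriched wells with STAT3 lay between Cq 33.67 and 34.43, near the limit. The part of these detection differences in the members' values was not tested.

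miR-193b had the lowest Cq of the 4 in each purification where any was detected. In HepG2 its Cq was 32.06 for control, 25.35 for p21 and 28.33 for STAT3. In PC-3 it was 33.67 for p21, and the control well had no Cq. The p21 purification of HepG2 stands highest and the control purification of PC-3 lowest. Among the assays detected on panel 1 it ranked 30 of 108 with the control probe, 4 of 128 with p21 and 9 of 139 with STAT3 in HepG2, and 18 of 38 with p21 in PC-3.

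miR-365 was read at 39.06 with the control probe, 32.06 with p21 and 31.25 with STAT3 in HepG2, and gave no Cq in either PC-3 purification. Both HepG2 target probes lie well inside the limit and the control lies well outside it, and the order of the target probes is the opposite of that for miR-193b. It ranked 54 of 128 on panel 1 with p21 and 32 of 139 with STAT3.

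The arms of miR-193a stayed at the edge of detection. In HepG2 miR-193a-3p was read at 36.28 with p21 and 34.95 with STAT3, and its control well had no Cq. miR-193a-5p was read at 38.68 with the control probe, 34.97 with p21 and 36.54 with STAT3. Neither gave a Cq in PC-3. Each was the last of the panel 1 assays inside the limit in the 1 purification where it was detected, so no order was read from these wells. Counted at the limit, 1 of the 4 miRNAs was detected with the control probe (16.8% of all assays), 3 with p21 (28.3%) and 3 with STAT3 (34.4%) in HepG2, and 0 (2.15%) and 1 (7.11%) with control and p21 in PC-3.

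**Figure D1:**
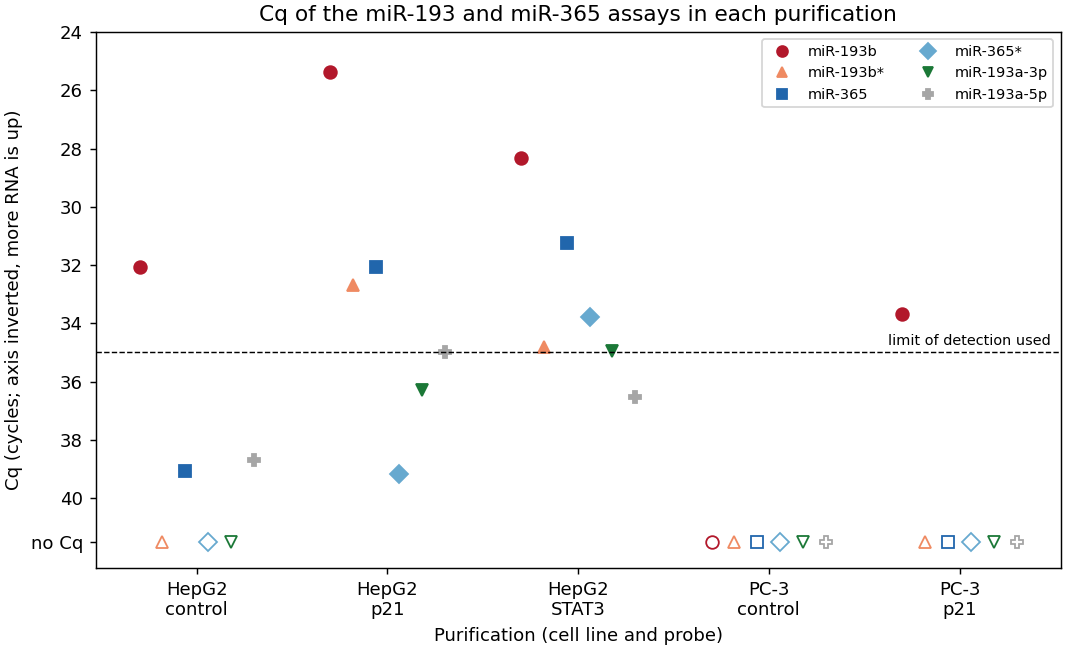
Cq of the 4 assays and of the star strands of miR-193b and miR-365 (y axis, cycles, inverted so that more RNA is higher) in each of the 5 purifications (x axis); each point is 1 well and open symbols are wells without a Cq. miR-193b is highest with p21 in HepG2 (25.35), while miR-365 is slightly higher with STAT3 (31.25) than with p21 (32.06).

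With the p21 probe in HepG2, miR-193b stood 6.71 cycles above the control purification as read, and 5.41 log2 units (42.5-fold) above it once panel 1 was centred on its median shift of 1.30 cycles (87 assays detected with both probes). It ranked 3 of 103 assays; after centring 37.9% of them were up by 2-fold or more and 36.9% down by as much. The small nuclear and nucleolar RNAs U6, SNORD38B and SNORD49A were 1.86, 2.82 and 2.63 cycles higher on the same panel, so miR-193b exceeded each of them by more than 3 cycles. The reference miRNAs miR-103 and miR-423-5p were 5.59 and 5.71 cycles higher, closer to the 6.71 of miR-193b. A further reference miRNA, miR-191, was past the limit in the control. With U6, SNORD38B and SNORD49A as the centre the value of miR-193b was 4.27. With the wider set of reference assays, which adds the reference miRNAs detected with both probes, it was 2.99. The part of overall RNA recovery in these values was not tested.

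miR-365 passed the limit with the p21 probe and not with the control, a state it shared with 14.5% of assays (2.95% were detected with the control only). Setting the control at Cq 35 gave a bound of at least 3.12-fold after centring (1.64 log2 units), rank 16 of 108 such bounds. The bound fell to 0.51 log2 units with U6, SNORD38B and SNORD49A as the centre and to -0.78, where it gives no direction, with all reference assays. The limit weighed on this value: taken as read, the control well at 39.06 would make the shift 7.0 cycles, next to 6.71 for miR-193b. How precise a Cq of 39 is cannot be read from these files; reference miRNAs with a well above 35 on either panel differed between panels by 0.38, 1.47 and 3.53 cycles in the 3 cases with a Cq on both.

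With the STAT3 probe in HepG2, miR-193b was less far above the control than with p21. It was 3.73 cycles above the control as read and 3.24 log2 units (9.46-fold) after centring on a panel shift of 0.49, rank 4 of 100 assays, of which 29.0% were up by 2-fold or more and 25.0% down by as much. U6, SNORD38B and SNORD49A were 1.44, 1.90 and 1.91 cycles higher, and miR-103 and miR-423-5p 2.32 and 2.95. With the small RNAs as the centre miR-193b stood at 1.98, with all reference assays at 1.63. miR-365, again detected with the target probe only (20.9% of assays, with 3.36% in the control only), had a bound of 3.26 log2 units, rank 3 of 156, and a shift of 7.81 cycles with its control well as read. That bound became 2.0 on U6, SNORD38B and SNORD49A, 1.64 on the reference assays and -1.16, with no direction, at a limit of Cq 32. The p21 and STAT3 comparisons use the same control purification, so their values for a miRNA are not independent.

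Set against each other without the control, the HepG2 target purifications held miR-193b and miR-365 in opposite order. miR-193b was 2.98 cycles higher with p21 than with STAT3 as read and 2.34 log2 units (5.05-fold) after centring, 20th of 155 assays, of which 29.0% were at least 2-fold higher. miR-365 was 0.81 cycles lower with p21 as read and 1.45 log2 units (2.73-fold) lower after centring, 16th from the bottom, where 20.0% were at least 2-fold lower. As read, the shift of miR-365 is close to the PCR and panel SD of 0.724 for a difference, and with the UniSp3 calibrator as the centre it turned to 0.17. That of miR-193b stayed between 1.32 and 3.96 under every centre and limit tried. On the same panel the reference miRNAs miR-103, miR-423-5p and miR-191 were 3.27, 2.76 and 1.86 cycles higher with p21 as read. U6, SNORD38B and SNORD49A were 0.42, 0.92 and 0.72 higher. The shift of miR-193b as read thus lies between those of miR-423-5p and miR-103, so a rise of this size was not particular to it.

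**Figure D2:**
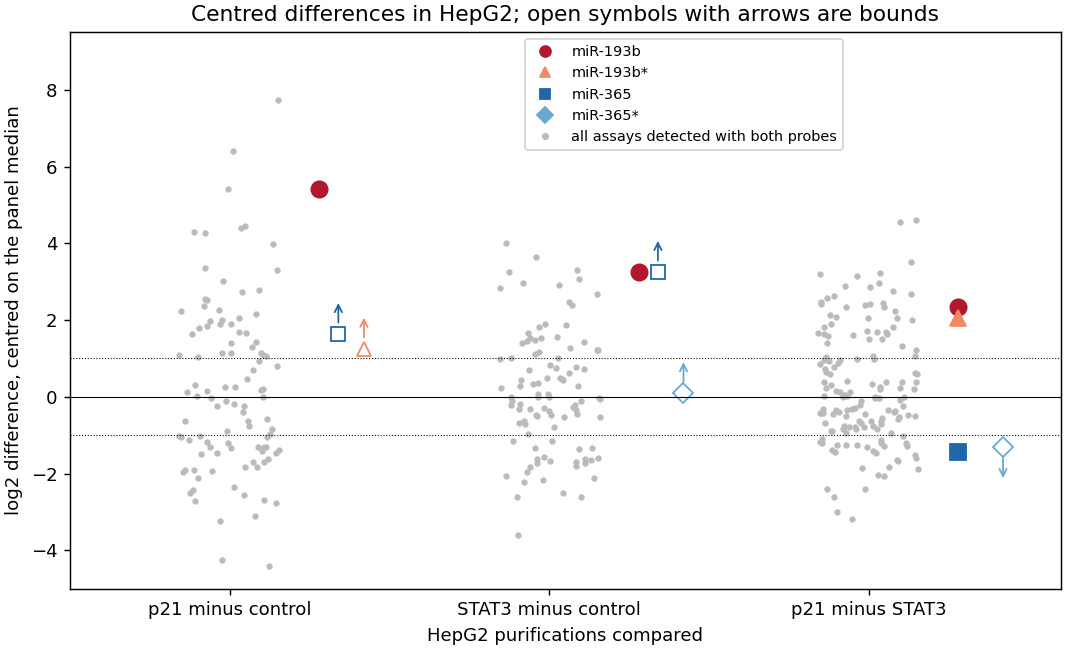
Log2 difference after centring on the panel median (y axis) for the 3 comparisons among HepG2 purifications (x axis); grey points are all assays detected with both probes, filled symbols the named miRNAs among them, and open symbols with arrows are bounds for assays detected with 1 of the probes. Bounds that give no direction are not drawn, which leaves out miR-193b* for STAT3 against control (-0.95). miR-193b lies at 5.41, 3.24 and 2.34, and miR-365 at -1.45 in the comparison of p21 with STAT3.

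The gap between the miRNAs does not depend on the centre, because both assays sit on panel 1. miR-365 came up 6.71 cycles after miR-193b in the p21 purification and 2.92 cycles after it in the STAT3 purification, a change of 3.78 cycles. The SD of 1.02 for such a difference covers PCR and panel only and rests mostly on U6, SNORD38B and SNORD49A. How far the gap varies between purifications of 1 kind was not measured. If both assays amplify with equal efficiency, miR-193b was 104-fold more abundant than miR-365 with p21 and 7.58-fold with STAT3. In the control purification the gap as read was 7.0 cycles, near that with p21, but it rests on the miR-365 well at 39.06. With that well set to 35 the gap was at least 2.94 cycles, a lower bound and not an estimate. This bound lies just above the gap with STAT3 and below that with p21. Which of the target purifications departs from the control ratio therefore cannot be read from these wells. In PC-3 with p21 the gap was at least 1.33 cycles.

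**Figure D3:**
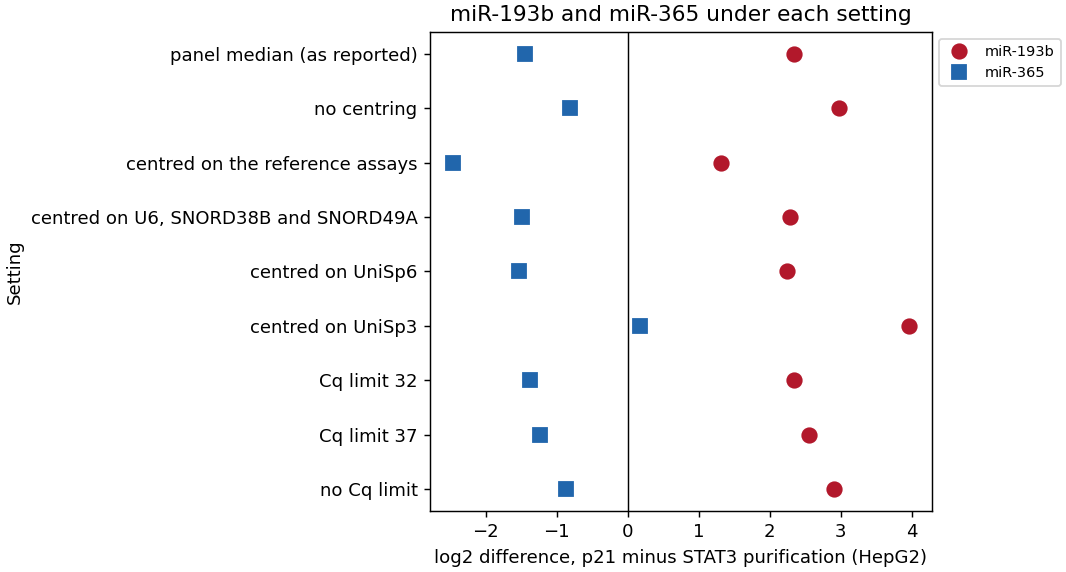
Log2 difference between the p21 and STAT3 purifications of HepG2 (x axis) for miR-193b and miR-365 under each centre and Cq limit (y axis). miR-193b is above 0 in all 9 settings shown and miR-365 below 0 in 8, with the exception at 0.17 under UniSp3. At Cq 32 the miR-365 point is a bound, since its p21 well lies past that limit.

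The opposite arms of the hairpins, measured on panel 2, gave the same order, though on a STAT3 well of miR-193b* near the limit and a p21 well of miR-365* past it. In HepG2 miR-193b* was read at 32.68 with p21 and 34.81 with STAT3. Its HepG2 control well and both PC-3 wells had no Cq. Against the control, p21 gave it a bound of at least 2.39-fold (1.26 log2 units), which turned to -0.40 on the reference assays and -0.19 on U6, SNORD38B and SNORD49A, where it gives no direction. With STAT3, miR-193b* had a bound of -0.95 against the control, which gives no direction. It was 2.13 cycles higher with p21 than with STAT3 as read and 2.05 log2 units (4.14-fold) after centring, 25th of the 155 assays, with values from 1.27 to 2.77 over the other settings. miR-365* was read at 39.17 with p21 and 33.77 with STAT3, and its other 3 wells had no Cq. Between the target probes it was thus detected with STAT3 only, as were 13.6% of assays, while 7.52% were detected with p21 only. With the p21 well at Cq 35 it was at least 2.49-fold lower with p21. The bound kept its sign under every centre tried, from -2.09 to -0.76. These wells are separate from those of the 3p strands, but come from the same purifications. The STAT3 well of miR-193b* ranked 106 of 117 on its panel. On panel 2 the reference miRNAs miR-103, miR-423-5p and miR-191 were 2.53, 1.72 and 0.33 cycles higher with p21 than with STAT3. U6, SNORD38B and SNORD49A shifted by -0.30, 0.51 and 0.39. The sources used here do not say whether the miR-365* assay reads the arm of MIR365A, of MIR365B or of both, which differ at 3 of the 22 bases compared.

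Among the lesser arms, miR-193b* was scarce beside its main arm. miR-365* was less so with STAT3, the only probe with which both it and miR-365 were detected. miR-193b* came up 7.33 cycles after miR-193b with p21 and 6.48 with STAT3, that is 0.622% and 1.12% of it if the assays are equally efficient. For miR-365* the gap to miR-365 was 7.11 cycles with p21, from a well at 39.17, and 2.52 with STAT3 (0.723% and 17.4%). The arms lie on different panels, so offsets between panels enter these gaps.

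miR-193a-3p, the seed relative of miR-193b, was far scarcer. It came up 10.93 cycles after miR-193b with p21 and 6.63 with STAT3. At equal assay efficiency its signal was 0.0512% of that of miR-193b with p21 and 1.01% with STAT3. The p21 figure rests on a miR-193a-3p well past the limit (36.28), and the STAT3 figure on one at its edge (34.95). No change in this share between the probes was therefore read. The Cq of miR-193a-5p minus that of miR-193a-3p was -1.31 with p21 and 1.59 with STAT3, on wells between Cq 34.95 and 36.54, where no order can be read.

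In PC-3 only miR-193b appeared, at Cq 33.67 with the p21 probe. It was 1 of 43 assays detected with that probe and not with the control (5.77% of assays, with 0.805% in the control only), with a bound of 1.33 cycles as read (at least 2.52-fold), 23rd of the 43 after centring. U6, SNORD38B and SNORD49A were 2.01, 1.95 and 2.44 cycles higher on the same panel, more than that bound. After centring on a panel shift of 1.89, which rests on 6 assays, the bound was -0.56 and gives no direction. Of the 10 assays detected with both PC-3 probes, 20.0% were up by 2-fold or more and 10.0% down by as much. The sign of this bound depended on the setting: it was 1.29 with a limit of Cq 37, 0.84 on UniSp6 and 0.94 on UniSp3, and -0.80 on the reference assays. Whether miR-193b was enriched over other RNAs in PC-3 is therefore not settled by these wells.

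Cq profiles over the 5 purifications, with undetected wells at 35, placed miR-193b beside miR-125a-5p, miR-92b and miR-23a, with mean absolute differences of 0.58, 0.86 and 0.89 cycles among assays of panel 1. In HepG2 miR-92b stood at 25.45 with p21 and 28.66 with STAT3, close to miR-193b in both, and in PC-3 at 30.88 with p21. In HepG2 miR-125a-5p stood at 27.66 with p21 and 28.29 with STAT3, and miR-23a at 27.62 and 27.32. Both came up later than miR-193b with p21 (25.35), and miR-23a had the target probes in the opposite order. miR-365 lay nearest to miR-197 (0.19), miR-25 (0.31) and miR-574-3p (0.32), but 3 of its 5 wells were set to 35, so these distances rest largely on that limit. Both PC-3 wells stand at 35 for all 4 assays and add 0, and the HepG2 control of miR-365, read at 39.06, counts as 35. Of these, miR-197 also passed the limit with the p21 and STAT3 probes only, at 32.91 and 31.16, whereas miR-25 and miR-574-3p were detected with the control probe at 33.77 and 34.43.

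miR-193b and miR-365 were also set beside other miRNAs with neighbouring hairpins. A set of pairs of assays whose hairpins lie within 10000 bases on the same strand was drawn up after the values were seen, from the 117 of 140 assays without a star that were detected with both target probes and matched a RefSeq hairpin. The 25 pairs differed in their p21 to STAT3 shift by a median of 1.68 log2 units (0.16 to 6.67), against 1.51 over all 5671 pairs of assays on a panel. miR-193b and miR-365 came at rank 4. Larger were pairs of miR-92a with miR-18b (6.67) and miR-20a (3.82), and of miR-18b with miR-106a (3.88), while miR-221 and miR-222 differed by 0.90. The pairs share assays, and several mature miRNAs, miR-365 among them, come from more than 1 locus.

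**Figure D4:**
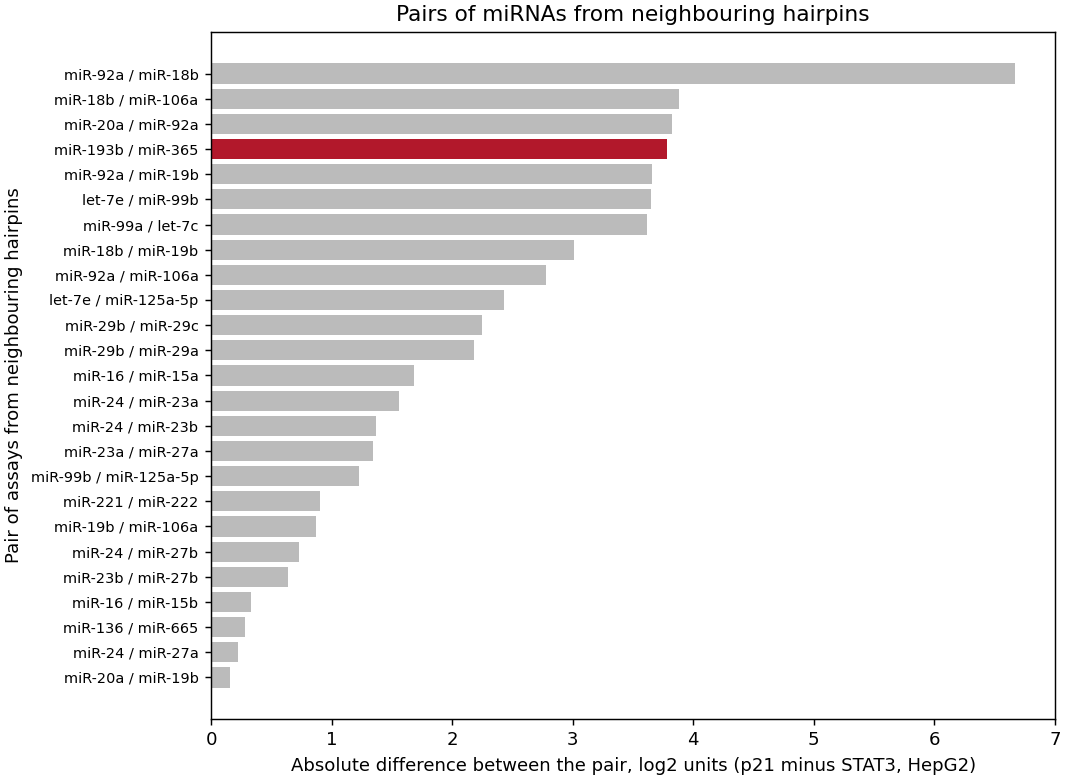
Absolute difference between the members of each of the 25 pairs of assays from neighbouring hairpins in their p21 minus STAT3 value in HepG2 (x axis, log2 units; bars start at 0). miR-193b with miR-365 is in red, at 3.78.

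Other miRNAs reported to repress cyclin D1, a role ascribed to miR-193b, were seen to a varying degree. Of 9 (let-7b, miR-15a, miR-16, miR-195, miR-17, miR-20a, miR-19a, miR-34a and miR-503), 5 were detected in HepG2 with both the p21 and the control probe. Of those, 3 were at least 2-fold higher and 0 lower, where 37.9% and 36.9% of all assays were. One more, miR-34a, was detected with the control only, with a bound of -3.37 (-2.07 without centring), which turned to 0.21 on UniSp3 and then gives no direction. The median of those 5 was 1.64 against 0.00 for all assays. It became -0.78 when the panel was centred on the reference assays and 5.22 on UniSp3. let-7b (3.97), miR-15a (1.84) and miR-20a (1.64) were the 3, all below miR-193b. With STAT3 2 of 5 were higher and 1 lower (29.0% and 25.0% of all assays), with a median of 0.62. That median became -0.99 on the reference assays, -0.64 on U6, SNORD38B and SNORD49A and 2.41 on UniSp3. In that comparison miR-503 was detected with STAT3 only and miR-17 with the control only, with centred bounds within 1 log2 unit of 0. Set directly, p21 against STAT3 gave 2 of 4 higher and 0 lower (29.0% and 20.0% of all assays), with a median of 1.09. It became 0.07 on the reference assays and 2.71 on UniSp3. Another 2, miR-34a and miR-503, were detected with STAT3 only, with bounds of -1.59 and -1.93, and miR-17 with p21 only, with a bound of 0.83. On UniSp3 the bound of miR-34a turned to 0.03, and on the reference assays that of miR-17 to -0.18. With 5 or 4 members detected on both sides, these counts are not set apart from the shares over all assays. In PC-3, 0 of the 9 were detected with both probes. There let-7b (Cq 28.99) and miR-19a (34.37) were detected with p21 only, as were 5.77% of all assays. The centred bound of let-7b was 4.12, between 3.88 and 6.01 over the centres. That of miR-19a was -1.27, which gives no direction.

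Of 11 miRNAs reported in brown fat cell formation beside the cluster (miR-133a, miR-133b, miR-155, miR-196a, miR-455-5p, miR-455-3p, miR-27a, miR-27b, miR-26a, miR-30b and miR-30c), 8 were detected in HepG2 with the p21 and control probes. Of those, 2 were at least 2-fold higher and 3 lower (37.9% and 36.9% of all assays), with a median of 0.16. It turned to -0.98 on U6, SNORD38B and SNORD49A and -2.26 on the reference assays, and became 3.74 on UniSp3. With STAT3 1 of 7 was higher, miR-30c at 2.95, and 2 lower (29.0% and 25.0% of all assays), with a median of 0.48. On the same 3 centres this median was -0.78, -1.13 and 2.27. miR-455-3p, detected with each target probe and not with the control, had bounds of -0.61 for p21 and -0.27 for STAT3, which give no direction, and miR-196a was detected with the control and not with STAT3, with a bound of -0.58. Between p21 and STAT3, 0 of 8 were higher and 2 lower (29.0% and 20.0% of all assays), miR-30c (-1.68) and miR-133b (-1.37). The median of -0.39 became 0.25 without centring, 1.23 on UniSp3 and -1.34 on the reference assays. miR-196a was detected with p21 only, with a bound of 1.55 that lay between 0.53 and 3.17 over the centres. These counts, too, are not set apart from the shares over all assays. In PC-3 only miR-27a of the 11 was detected, with p21 at Cq 34.91. Its bound of -1.80 gives no direction.

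In the authors' deposited table of linear fold changes, miR-193b stands at 88.9-fold for p21 in HepG2 (rank 4 of 729 entries) and 18.7-fold for STAT3 (rank 6). The authors' deposited table gives miR-365 at 6.52-fold and 18.9-fold, which places it level with miR-193b for STAT3 and below it for p21. Both miR-365 values follow from the Cq values with UniSp6 as the normaliser and the control well of 39.06 set to 35, so they are bounds in the sense used above. With that well as read, miR-365 shifted by 7.0 cycles for p21 and 7.81 for STAT3, against 6.71 and 3.73 for miR-193b. Its place beside miR-193b in the deposited folds thus depends on the limit.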

How the data were processed

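HepG2 and PC-3 purifications were measured on Exiqon multiplex miRNA panels, per the labels' protocols. The authors deposited unnormalised Cq values, 1 well per assay, and a table of fold ratios made, per the file headers, as 2 to the power of minus ΔΔCt with an unnamed housekeeping gene as reference. Although headed as log values, they hold no negative number and were read as linear. The sources used here do not give threshold, instrument or software.

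Groups and panels came from the labels. Differences are the control Cq minus the target Cq for assays with both at or below 35, less the median of such miRNA assays on the panel; with 1 well past the limit, that well was set to 35 and the value is a bound. At least 1 log2 unit was counted as higher or lower. Panels carry different assays and are not replicates, so depth and precision rest on repeated reference wells and no test was run.

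Named were the 4 miRNAs, their star strands, the 3 assays of the same panel nearest to each of those detected in at least 2 purifications, and 2 lists. Members and lists were chosen with earlier results of these data known. Alternatives were other centres (none, reference assays, small RNAs, UniSp6, UniSp3), limits of 32 and 37, undetected wells used at 35 and the authors' folds; using every Cq as read was added later. The calculation (Python 3.11.15, pandas 2.3.3, numpy 2.4.6) was tested on simulated data for assays detected with both probes. Bounds at the limit were not part of that test.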

Additional observations from a re-analysis of the deposited data

How the results depend on the processing

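No paired analysis was possible because each condition was purified 1 time. A value is said to have moved when it changed by at least the SD of a difference, 0.724. With p21 in HepG2, miR-193b (5.41) became 6.71 without centring, 2.99 on the reference assays, 4.27 on U6, SNORD38B and SNORD49A, 6.47 on UniSp6, 8.99 on UniSp3, 4.29 at Cq 32 and 6.47 in the authors' deposited folds. The miR-365 bound (1.64) became, in the same order, 2.94, -0.78, 0.51, 2.71 and 5.22, with 3.99 at Cq 37, 6.33 without a limit and 2.71 in the deposited folds. With STAT3, miR-193b (3.24) moved to 1.63 on the reference assays, 1.98 on the small RNAs, 4.22 on UniSp6, 5.03 on UniSp3, 1.77 at Cq 32 and 4.22 in the deposited folds. The miR-365 bound (3.26) moved to 1.64, 2.0, 4.24, 5.05, -1.16, 5.32 at Cq 37, 7.36 without a limit and 4.24 in the deposited folds; at Cq 32 the control is set to 32, so a bound near or below 0 gives no direction. In PC-3 the miR-193b bound (-0.56) moved to 1.33 without centring, 0.84 on UniSp6, 0.94 on UniSp3 and 1.29 at Cq 37. For p21 against STAT3, miR-193b (2.34) moved to 1.32 on the reference assays and 3.96 on UniSp3, and miR-365 (-1.45) to -2.46 and 0.17. The difference of miR-193b and miR-365 against the control was 3.77 for p21 with undetected wells at 35, 1.77 at 37 and -0.29 as read, and for STAT3 -0.02, -2.02 and -4.08, since the limit sets the miR-365 control. In PC-3 it was 1.33 and 3.33. The miR-193b* bound for p21 fell to -0.40 on the reference assays and -0.19 on the small RNAs. The median of cyclin D1 regulators for p21 fell to -0.78 on the reference assays and rose to 5.22 on UniSp3. The miR-365* bound for STAT3 (0.10) became 1.23 without centring, -0.70 on the reference assays, -1.08 on the small RNAs, 1.33 on UniSp3 and 2.05 at Cq 37, and miR-193b* for p21 against STAT3 (2.05) became 1.27 on the reference assays.

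Members detected at Cq 32 were 0 with the HepG2 control, 1 with p21 and 0 with p21 in PC-3, and without a limit 3 with the HepG2 control. Counts of assays at least 2-fold higher and lower also followed the setting. For p21 in HepG2 (39 and 38) they were 56 and 11 without centring, 9 and 70 on the reference assays, 18 and 54 on the small RNAs, 51 and 12 on UniSp6, 88 and 1 on UniSp3, 6 and 8 at Cq 32, 64 and 51 at Cq 37, 69 and 576 with undetected wells at 35 and 94 and 25 in the deposited folds. For STAT3 (29 and 25) the same settings gave 41 and 20, 9 and 59, 11 and 54, 44 and 10, 71 and 2, 4 and 9, 48 and 49, 46 and 297, and 77 and 60. For PC-3 (2 and 1) they gave 5 and 0, 2 and 5, 2 and 5, 4 and 0, 5 and 0, 1 and 1, 9 and 5, 11 and 355, and 17 and 2. For p21 against STAT3 (45 and 31), which the deposited folds do not hold, they gave 58 and 17, 26 and 76, 43 and 33, 47 and 26, 85 and 14, 12 and 9, 85 and 77, and 62 and 82. With undetected wells at 35, assays undetected on both sides take minus the panel shift and make up 512 of the 576 lower for p21, 249 of 297 for STAT3 and 335 of 355 in PC-3. For p21 against STAT3 they make up 0 of 82, which hold 31 detected with both probes and 51 with STAT3 only. Near Cq 35 little template is present, which limits every value of the miR-193a arms, miR-365*, the STAT3 well of miR-193b* and the control wells of miR-365.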

Other observations

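The authors' deposited table gives miR-193b in PC-3 at 0.71-fold for p21 against control and miR-193b* at 1.79-fold, although the Cq table has no Cq for miR-193b* in either PC-3 purification and has miR-193b at 33.67 with p21. Rebuilt from the Cq values with UniSp6 and a limit of 35, miR-193b comes to 1.79-fold and miR-193b* to 1.51-fold. The authors' deposited table lists miR-193a-3p at 1.51-fold where the rebuilt value is 0.71. These entries belong to 17 of 729 in the PC-3 column that could not be rebuilt within 0.01 log2 units, and 17 of the 17 equal the rebuilt value of the entry listed 1 row above. They run from miR-191* to miR-1979, the pattern a displacement by 1 row would give, and for PC-3 the Cq values were used in its place.

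For STAT3 the authors' deposited table has miR-193a-5p at 0.481-fold, where the rebuilt value is 1.4-fold with both wells past the limit and set to 35. The listed value is met when the STAT3 well is used as read, at 36.54, and the control well of 38.68 is set to 35. Of 89 STAT3 entries in the authors' deposited table that could not be rebuilt with both wells limited, 89 were met in that way. Both miR-193a-5p wells lie past the limit, so no order was read from them.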
